A study of Homo sapiens with 63 samples.

Results

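Cells given photocaged ibufenac were compared with DMSO cells at 12 h in HEK293T, an established human embryonic kidney line that here carried the Halo protein tag. The comparison used 6 of the 63 libraries of the series, chosen by title alone: the 3 replicates labelled Ibufenac photocaged 12hr and the 3 labelled DMSO 12hr. All 58336 genes of the count table were taken, and the 19352 that passed a filter on low counts were tested. Per the design text, cells held Ht-Pre-AG-ibufenac, a precursor of the acyl glucuronide of ibufenac that binds Halo, after 2 h at 10 µM. Unbound precursor was then washed away and the drug glucuronide was set free with light of 365 nm (3 min at 5 mW/cm2). The other groups used below are Ibuprofen photocaged 12hr (Ht-Pre-AG-ibuprofen, treated in the same way), Ibufenac probe 12hr, Ibufenac bolus 12hr, Ibufenac photocaged 6hr and 18hr, and DMSO 6hr and 18hr, with 3 libraries each. The labels place every group in HEK293T but leave unsaid what separates the probe form from the photocaged one, which groups (DMSO among them) received light, the dose of the bolus, or whether replicates were separate cultures. The p-values may therefore measure technical spread alone. Below, photocaged ibufenac names the whole treatment. Effects of its precursor, its light and the freed glucuronide cannot be told apart against DMSO. HEK293T cells are not hepatocytes, although the series title concerns drug-induced liver injury.

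Ibufenac is an arylacetic acid anti-inflammatory drug that lacks the α-methyl group of ibuprofen. Carboxylic acid drugs of this kind are conjugated to glucuronic acid, and the resulting acyl glucuronides are reactive esters that can modify proteins. Cells that meet electrophiles activate the transcription factor NRF2, which switches on genes of glutathione, thioredoxin and heme metabolism. Shortage of amino acids or misfolded proteins in the endoplasmic reticulum activate ATF4, which switches on amino acid synthesis and uptake, while XBP1 serves the unfolded protein response. Low oxygen stabilises HIF, the factor behind glycolytic and mitophagy genes.

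The photocaged libraries held 17.65, 16.98 and 21.51 M counts, and the DMSO libraries held 22.59, 20.71 and 19.17 M. The protein-coding share of counts was 71.9% to 75.5% in photocaged libraries and 76.5% to 79.3% in DMSO libraries, so the groups did not overlap. Of 12 markers of HEK293T and embryonic kidney none was at 0, and their summed level was 731 to 784 CPM (counts relative to the TMM-scaled library total) in photocaged cells and 715 to 747 CPM in DMSO cells. Summed hepatocyte markers reached 8.77 to 9.34 and 9.64 to 11.1 CPM, with APOB, TTR, SERPINA1 and HNF4A at 0 in all 6 libraries. Blood markers summed to 2.67 to 4.23 and 1.95 to 3.17 CPM (PTPRC, HBB and CD3E at 0), fibroblast markers to 7.01 to 7.80 and 6.44 to 7.72 (COL1A2 at 0), epithelial markers to 1.82 to 4.34 and 2.85 to 3.85 (KRT5, KRT14 and KRT19 at 0), and endothelial markers to 1.10 to 1.19 and 0.227 to 0.867 (CDH5 at 0). In these bulk samples, fewer cells of a type and less RNA per cell cannot be told apart.

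Photocaged ibufenac changed 306 genes against DMSO at 12 h, 1.58% of those tested (edgeR quasi-likelihood test, Benjamini-Hochberg adjusted p under 0.05). Of these, 92 rose (0.475% of tested genes) and 214 fell (1.11%). Most changes were small: 61 passed 1.5-fold and 21 passed 2-fold, and the median log2 change over all tested genes was 0.01. Genes of glutathione and thioredoxin chemistry, serine synthesis, asparagine synthesis and amino acid uptake were among those that rose. Genes of glycolysis, the hypoxia response, RNA splicing and axon guidance were among those that fell. The count was 71 without photocaged replicate 1, 147 and 151 without replicates 2 and 3, and 206, 115 and 116 without DMSO replicates 1, 2 and 3.

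Genes that fell had longer transcripts (median 5.65 kb) and lower GC content (44.2%) than genes that rose (3.12 kb and 50.7%), and all tested genes lay at 3.04 kb and 48.3%. Both measures were taken from the longest annotated transcript of each gene. Levels differed too, with a median of 127 CPM for genes that fell, 35.3 CPM for genes that rose and 10.2 CPM over all tested genes. Across 19319 genes, which are not independent, Spearman's rho of the log2 change was 0.249 with GC content and -0.0518 with length. With each library's GC and length trends removed, 178 genes rose and 315 fell. The direction split depended on the libraries fitted. The 12 h libraries alone gave 197 risen and 200 fallen genes, and the compared groups alone gave 849 risen and 732 fallen.

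**Figure D1:**
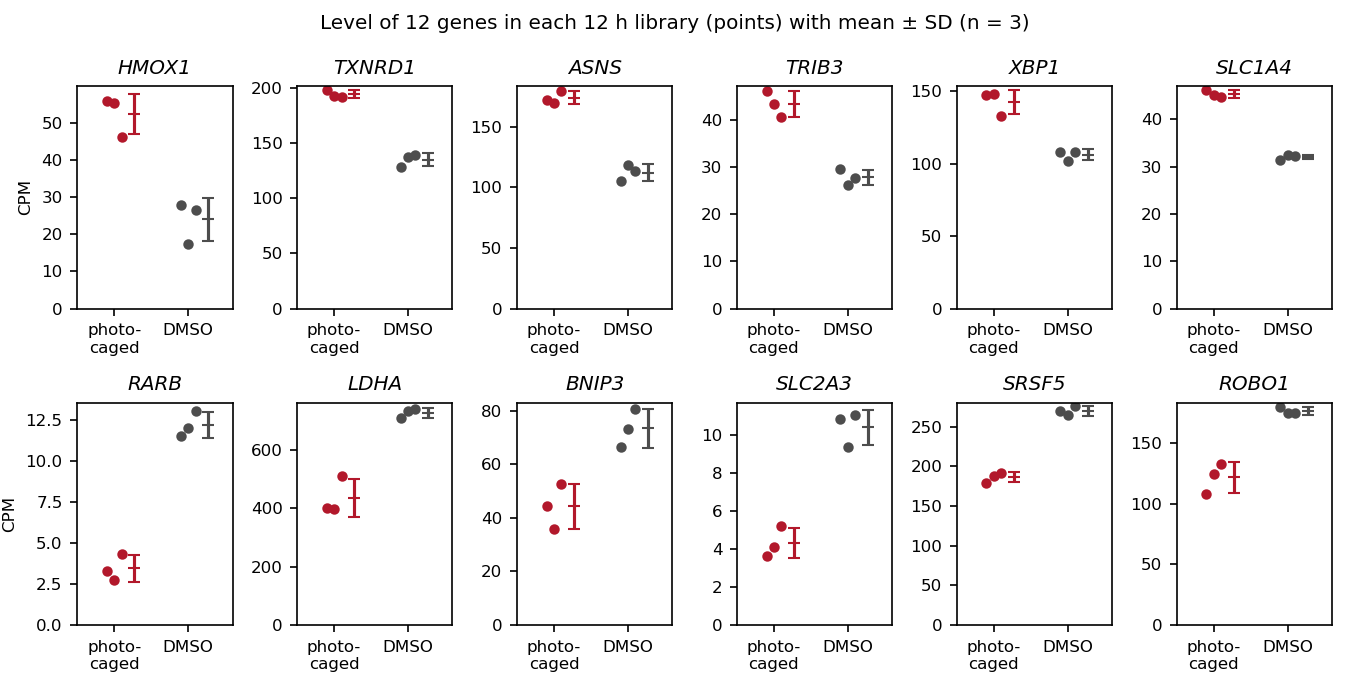
Level of 12 genes (CPM, linear axes from 0) in each photocaged ibufenac (red, left) and DMSO (grey, right) library at 12 h, with mean ± SD (n = 3). In every panel the 3 red points lie apart from the 3 grey points, higher for the 6 genes in the top row and lower for the 6 in the bottom row. This separation came with the choice of called genes. All 92 risen and 214 fallen called genes had groups that did not overlap, as had 26.4% of all tested genes.

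Promoter sequences are shown for a few chosen genes whose known regulators order the results, and only where a motif lay before the start. They come from RefSeq on GRCh38.p14 and lie within 250 bases before to 50 bases after the start, and capitals mark the motif, on either strand. The antioxidant response element (TGACNNNGC), bound by NRF2, occurred in 13.6% of 27305 promoters of 300 bases, in 6 of the 20 matched NRF2 target genes and in 3 of the 4 matched ones that rose (TXNRD1, GCLM and ME1). HMOX1, which also rose, was not among the matched genes.

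TXNRD1 (chr12:104215654-104215714, + strand): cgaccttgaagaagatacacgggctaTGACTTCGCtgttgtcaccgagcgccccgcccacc
GCLM (chr1:93909431-93909490, - strand): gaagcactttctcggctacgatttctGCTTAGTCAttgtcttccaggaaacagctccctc

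The element of ATF4 with C/EBP (TGATGNAA) occurred in 3.67% of all promoters, in 6 of 28 matched ATF4 targets and in 2 of the 7 that rose (ASNS and SLC3A2). In ASNS it lay 68 bases before the start. TRIB3 and PCK2, which also rose, had no match.

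ASNS (chr7:97872443-97872502, - strand): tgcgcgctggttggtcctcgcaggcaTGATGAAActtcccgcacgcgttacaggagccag

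The HIF core (ACGTG), which overlaps itself when read on both strands as CACGTG, occurred in 21.6% of all promoters, in 11 of 22 matched hypoxia targets and in 4 of the 5 matched ones that fell (P4HA1, PLOD2, BNIP3 and EGLN1). The glycolytic genes LDHA and PGK1 are printed with BNIP3 and EGLN1, and all of them fell. KDM3A also fell but had no match, and P4HA1 and PLOD2 had matches that are not printed.

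LDHA (chr11:18394464-18394520, + strand): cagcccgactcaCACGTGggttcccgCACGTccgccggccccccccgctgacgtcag
PGK1 (chrX:78104039-78104095, + strand): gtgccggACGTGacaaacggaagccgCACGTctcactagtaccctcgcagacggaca
BNIP3 (chr10:131982026-131982082, - strand): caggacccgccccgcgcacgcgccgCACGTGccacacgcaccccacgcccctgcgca
EGLN1 (chr1:231422288-231422326, - strand): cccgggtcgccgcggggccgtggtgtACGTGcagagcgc

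A match is a description of these letters and was not tested for binding.

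Photocaged ibufenac raised 5 of 29 tested NRF2 target genes and lowered none, where 0.475% of all tested genes rose and 1.11% fell. The list's median log2 change was 0.25, against 0.01 over all tested genes. HMOX1 (22:35380361-35394214, + strand, GENCODE release 29 on GRCh38), which breaks down heme, had 55.7, 55.3 and 46.0 CPM in photocaged cells, against 27.9, 17.4 and 26.6 CPM in DMSO cells. The lowest photocaged library stood well above the highest DMSO library, and the log2 change was 1.13 ± 0.15 (SE; adjusted p = 3.3e-06). TXNRD1 (12:104215779-104350305, + strand), the cytosolic thioredoxin reductase, had 198, 193 and 192 CPM in photocaged cells, against 128, 138 and 139 CPM in DMSO cells. Its log2 change was 0.52 ± 0.06 (adjusted p = 2.2e-07), a smaller fold with less spread between replicates. GCLM, the modifier subunit of the enzyme that starts glutathione synthesis, had 40.2, 44.8 and 40.6 CPM, against 29.4, 26.3 and 28.9 CPM in DMSO cells, a log2 change of 0.57 ± 0.10 (adjusted p = 0.000564). These 3 genes passed the threshold in all 15 alternative settings run for this comparison.

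FTL, the light chain of the iron store ferritin, rose by 0.31 ± 0.07 on the log2 scale (adjusted p = 0.0162), and ME1, an NADPH-producing malic enzyme, by 0.49 ± 0.13 (adjusted p = 0.0414). FTL lost its call without photocaged replicate 1 or 3 or DMSO replicate 1 or 3 and with the 12 h libraries alone, with adjusted p up to 0.0959. ME1 lost it without each photocaged replicate in turn or DMSO replicate 2 or 3, with adjusted p up to 0.282. Other NRF2 targets missed the threshold: the log2 difference was 0.79 for PIR (adjusted p = 0.0636), 0.32 for the cystine carrier SLC7A11 (0.0731), 0.53 for the biliverdin reductase BLVRB (0.0992) and 0.68 for the quinone reductase NQO1 (0.222). CPM ranges of the groups did not overlap for 16 of the 29 genes, all higher in photocaged cells, while 26.4% of all tested genes had ranges that did not overlap, 13.6% higher and 12.8% lower. The 4 listed genes that failed the count filter were ABCC3, AKR1C1, AKR1C2 and GPX2. The count of risen members was 3 without photocaged replicate 1 or 3 or DMSO replicate 3.

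Of 34 ATF4 target genes, 11 rose and none fell, where 0.475% of all tested genes rose and 1.11% fell. The list's median log2 change was 0.35. ASNS (7:97852118-97872542, - strand), which makes asparagine, had 172, 170 and 180 CPM in photocaged cells, against 105, 118.5 and 113 CPM in DMSO cells. The groups lay far apart, with a log2 change of 0.63 ± 0.07 (adjusted p = 1.24e-07). TRIB3, a pseudokinase that restrains ATF4 signalling, had 46.2, 43.3 and 40.5 CPM in photocaged cells, against 29.5, 26.3 and 27.7 CPM in DMSO cells, a log2 change of 0.64 ± 0.09 (adjusted p = 2.88e-05).

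Both early steps of serine synthesis from glycolytic carbon rose. PHGDH, the first enzyme, had 244.5, 229 and 230 CPM in photocaged cells, against 173, 162 and 166 CPM in DMSO cells (log2 change 0.49 ± 0.08, adjusted p = 5.97e-05). PSAT1, which follows it, changed by 0.53 ± 0.09 (adjusted p = 0.000564). The mitochondrial folate enzyme MTHFD2 rose by 0.38 ± 0.07 (adjusted p = 0.000907). PCK2, the mitochondrial phosphoenolpyruvate carboxykinase, had 33.1, 33.9 and 31.5 CPM, against 18.6, 18.6 and 17.2 CPM in DMSO cells, a log2 change of 0.85 ± 0.15 (adjusted p = 0.00035). ASNS, TRIB3, PHGDH, PSAT1, MTHFD2 and PCK2 held in all 15 alternatives.

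The other ATF4 targets that rose did so less firmly. ALDH1L2, a mitochondrial folate enzyme, changed by 0.64 ± 0.15 (adjusted p = 0.0127) and lost its call without DMSO replicate 1 or photocaged replicate 2 (adjusted p up to 0.0834). SLC3A2, the heavy chain of several amino acid carriers, changed by 0.46 ± 0.12 (adjusted p = 0.0298), NUPR1 by 1.06 ± 0.28 (0.0315), SHMT2 by 0.38 ± 0.10 (0.0356) and the proline enzyme PYCR1 by 0.58 ± 0.16 (0.0478). Without photocaged replicate 1 or 2 or DMSO replicate 2 or 3 these 4 genes lost their calls. SHMT2 and PYCR1 were also lost without photocaged replicate 3, and SHMT2 without DMSO replicate 1. The 12 h libraries alone lost NUPR1 and SHMT2, and the replicate block lost PYCR1. Adjusted p ran up to 0.318. DDIT3, which encodes the pro-apoptotic factor CHOP, was at 27.4, 28.9 and 27.4 CPM in photocaged cells and 30.7, 28.7 and 28.1 CPM in DMSO cells (log2 change -0.06 ± 0.12, adjusted p = 0.894). Its 95% interval, -0.31 to 0.18, leaves out a rise of the size seen for ASNS. The count of 11 was 6 without photocaged replicate 2 and 7 without photocaged replicate 1 or DMSO replicate 2 or 3, and with GC and length trends removed it was 14 with a list median of 0.20.

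None of 20 cytosolic aminoacyl tRNA synthetases passed the threshold, as 1.58% of all tested genes did (median log2 change of the list 0.05). Among 38 members of the amino acid carrier families, a list written after values had been seen, 27 were tested and 4 rose, SLC3A2 among them. Of all tested genes 0.475% rose. SLC1A4, a carrier of serine and alanine, had 46.3, 45.0 and 44.6 CPM in photocaged cells, against 31.5, 32.4 and 32.3 CPM in DMSO cells (log2 change 0.50 ± 0.09, adjusted p = 0.00035). SLC43A2, a carrier of large neutral amino acids, changed by 0.88 ± 0.18 (adjusted p = 0.00266), and the cationic carrier SLC7A3 by 1.13 ± 0.28 (adjusted p = 0.0228). SLC1A4 and SLC43A2 held in all 15 alternatives, whereas SLC7A3 lost its call without DMSO replicate 1 or 2 or photocaged replicate 2 or 3 (adjusted p up to 0.219).

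Of 24 genes of the unfolded protein response, 2 rose, as did 0.475% of all tested genes. XBP1 (22:28794555-28800597, - strand) had 147, 148 and 133 CPM in photocaged cells, against 108, 102 and 108 CPM in DMSO cells, a log2 change of 0.43 ± 0.06 (adjusted p = 3.81e-05) that held in all 15 alternatives. The gene-level counts do not separate its spliced and unspliced forms. PDIA4, a disulfide isomerase of the endoplasmic reticulum, changed by 0.28 ± 0.07 (adjusted p = 0.0259). That call was lost without each photocaged replicate in turn or DMSO replicate 1 or 2 and with the 12 h libraries alone (adjusted p up to 0.200). Of 20 heat shock chaperones 2 fell, as did 1.11% of all tested genes. HSPE1 fell by 0.38 and CHORDC1 by 0.33 on the log2 scale (adjusted p = 0.0264 and 0.0184). Both of these calls ended without each photocaged replicate in turn or DMSO replicate 2 or 3. HSPE1 was also lost without DMSO replicate 1 and with the 12 h libraries alone. Adjusted p ran up to 0.172. No proteasome subunit of 31 passed the threshold, as 1.58% of all tested genes did (median of the list 0.07).

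**Figure D2:**
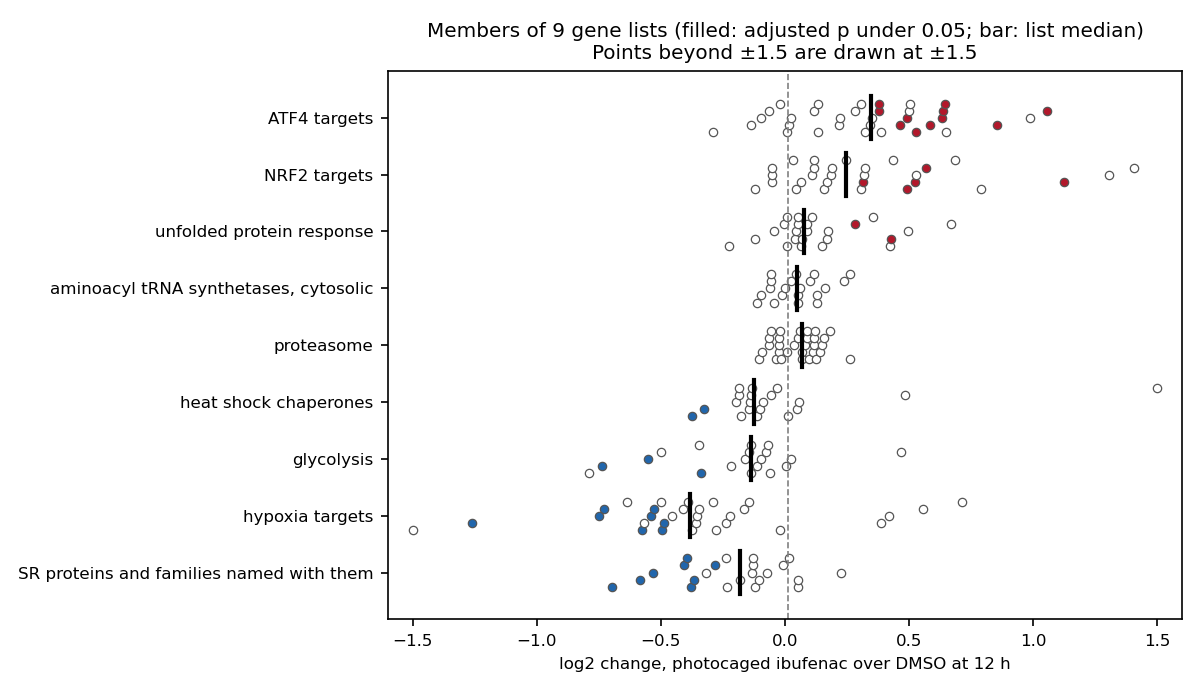
Log2 change of photocaged ibufenac over DMSO at 12 h for the tested members of 9 gene lists, 1 point per gene, filled where the adjusted p was under 0.05 (red higher, blue lower), with the list median as a bar and the median of all tested genes as a dashed line. Medians lie right of the dashed line for ATF4 (0.35) and NRF2 (0.25) targets and left of it for hypoxia targets (-0.38).

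Photocaged ibufenac lowered 8 of 30 tested hypoxia targets and raised none, where 1.11% of all tested genes fell and 0.475% rose. The list's median log2 change was -0.38, only 4 of its members had a positive change, and 21 had CPM ranges wholly below those of DMSO cells, as did 12.8% of all tested genes. SLC2A3 (12:7919230-7936275, - strand), a glucose carrier, had 3.65, 4.11 and 5.20 CPM in photocaged cells, against 10.8, 9.35 and 11.03 CPM in DMSO cells, a log2 change of -1.26 ± 0.25 (adjusted p = 0.00249). Its highest photocaged value lay far below its lowest DMSO value. KDM3A, a histone demethylase induced by HIF, had 71.1, 75.9 and 66.4 CPM in photocaged cells, against 95.9, 104 and 100.2 CPM in DMSO cells (log2 change -0.49 ± 0.10, adjusted p = 0.00354). BNIP3, a mitophagy receptor, had 44.4, 35.7 and 52.7 CPM in photocaged cells, against 66.3, 73.2 and 80.7 CPM in DMSO cells (log2 change -0.73 ± 0.19, adjusted p = 0.0304). KDM3A held in all 15 alternatives, and SLC2A3 missed the threshold in 1, without photocaged replicate 1 (adjusted p = 0.0516).

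The other hypoxia targets that fell were the collagen-modifying enzymes P4HA1 (log2 change -0.54, adjusted p = 0.00926) and PLOD2 (-0.75, 0.0204), BNIP3L (-0.53, 0.0189), ANKZF1 (-0.49, 0.0248) and EGLN1, the oxygen sensor that marks HIF for destruction (-0.58, 0.0427). BNIP3 and these 5 genes each lost the call without photocaged replicate 1, photocaged replicate 2, DMSO replicate 2 or DMSO replicate 3. ANKZF1 and EGLN1 also lost it without photocaged replicate 3 or DMSO replicate 1. Adjusted p ran up to 0.246. The count of 8 was 1 without photocaged replicate 1, 2 without photocaged replicate 2 or DMSO replicate 2 or 3, and 6 without the other replicates. VEGFA (-0.39, adjusted p = 0.0717), PDK1 (-0.64, 0.0974) and the noncoding RNA MIR210HG (-1.62, 0.0965) missed the threshold, and CA9, at 0 counts in the 6 libraries, was not tested.

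Of 19 tested glycolysis genes 3 fell, as did 1.11% of all tested genes, and the list's median was -0.14. LDHA (11:18394388-18408425, + strand), which turns pyruvate into lactate, had 402, 397 and 513 CPM in photocaged cells, against 710, 733 and 742 CPM in DMSO cells. All photocaged values lay far below DMSO, though photocaged replicate 3 stood nearer to it than the other two, and the log2 change was -0.74 ± 0.14 (adjusted p = 0.0011). PGK1 (X:77910739-78129296, + strand), phosphoglycerate kinase, had 297, 322 and 372 CPM, against 458, 489 and 506 CPM in DMSO cells (log2 change -0.55 ± 0.11, adjusted p = 0.00396). PKM, pyruvate kinase, fell by 0.34 ± 0.08 (adjusted p = 0.0107). LDHA held in all 15 alternatives. PGK1 was lost without photocaged replicate 1 (adjusted p = 0.0783). PKM was lost without photocaged replicate 1 or 2 and with the 12 h libraries alone (up to 0.0898). The count of 3 was 1 and 2 without photocaged replicates 1 and 2.

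RARB (3:25174332-25597932, + strand), the retinoic acid receptor beta, which is itself induced by retinoic acid, fell in every photocaged library. It had 3.29, 2.72 and 4.34 CPM in photocaged cells, against 11.5, 12.0 and 13.03 CPM in DMSO cells. The log2 change was -1.81 ± 0.24 (adjusted p = 4.19e-06), and it held in all 15 alternatives. RARB was the only one of 24 tested retinoic acid genes that passed, as did 1.58% of all tested genes, and the list's median was -0.08. CYP26A1, another retinoic acid target, had a log2 value of -0.52 (adjusted p = 0.887), which was 0.021 without DMSO replicate 1.

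The lists of SR proteins and the families named with them and of axon guidance genes were both written after values had been seen, so their counts only describe. Of 23 genes of SR proteins, CLK kinases, cyclins L and related families, 8 fell, as did 1.11% of all tested genes. The median log2 change of the 23 genes was -0.18, against 0.01 over all tested genes. CPM ranges lay wholly below DMSO for 17 of them and for 12.8% of all tested genes. SRSF5 (14:69726900-69772005, + strand), a splicing regulator, had 179, 188 and 192 CPM in photocaged cells, against 269, 264 and 276 CPM in DMSO cells (log2 change -0.53 ± 0.08, adjusted p = 1.55e-05). LUC7L3 (17:50719544-50756213, + strand), a U1 snRNP-associated protein, had 137, 161 and 160 CPM, against 237, 248 and 259 CPM in DMSO cells (log2 change -0.70 ± 0.12, adjusted p = 0.000185). In both genes the ranges were narrow beside the gap between groups.

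Cyclin L1 (CCNL1) changed by -0.41 on the log2 scale (adjusted p = 0.000493) and CLK2, a kinase of SR proteins, by -0.59 (0.000582). SRSF11 (-0.37, 0.004), CCNL2 (-0.38, 0.00707), TRA2A (-0.40, 0.00867) and CLK1 (-0.28, 0.0189) also fell. SRSF5, LUC7L3, CCNL1 and CLK2 held in all 15 alternatives. SRSF11 was lost without photocaged replicate 1 (adjusted p = 0.0527), CCNL2 without photocaged replicate 3 (0.0532) and TRA2A without photocaged replicate 1 or DMSO replicate 2 (up to 0.107). CLK1 was lost without each photocaged replicate in turn or DMSO replicate 2 or 3 and with no low-count filter (up to 0.106).

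Of 27 tested genes for Slit, Robo, Eph and ephrin proteins, which guide growing axons, 5 fell, as did 1.11% of all tested genes. The receptor gene ROBO1 (3:78597240-79767815, - strand) had 108, 124.5 and 133 CPM in photocaged cells, against 180, 174.5 and 175 CPM in DMSO cells (log2 change -0.53 ± 0.08, adjusted p = 1.65e-05). Its ligand SLIT2 changed by -0.60 ± 0.11 (adjusted p = 0.0011), and both held in all 15 alternatives. EPHA4 (-0.48, 0.00603), EFNB2 (-0.49, 0.0162) and EPHA7 (-0.47, 0.0241) lost their calls without photocaged replicate 1, EFNB2 and EPHA7 also without photocaged replicate 2 or DMSO replicate 2 and EPHA7 without DMSO replicate 3 (adjusted p up to 0.299).

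Other called genes with large changes were not on the lists described above, which does not show that they are regulated differently. GNG2, a G protein gamma subunit, had 2.71, 1.68 and 1.29 CPM in photocaged cells, against 0.173, 0.907 and 0.30 CPM in DMSO cells (log2 change 2.02 ± 0.45, adjusted p = 0.00818). It was called in 11 of 14 alternatives and lost without DMSO replicate 1 or 3 or photocaged replicate 1 (adjusted p up to 0.121). INHBE, an activin subunit, rose by 1.11 ± 0.27 (adjusted p = 0.0208) and NIBAN1, a stress-induced gene, by 1.09 ± 0.25 (adjusted p = 0.0127). INHBE lost its call without each DMSO replicate in turn or photocaged replicate 1 (adjusted p up to 0.181), and NIBAN1 without photocaged replicate 1 or 2 or DMSO replicate 2 or 3 (up to 0.101). SLC16A9, a carrier of the monocarboxylate family, changed by 0.91 ± 0.20 (adjusted p = 0.00859, and 0.0802 without DMSO replicate 3). MAP2 (1.32), OVCA2 (1.30), INAVA (1.22), C12orf57 (1.15) and INPP4B (1.12) also rose on the log2 scale. They lost the call in 7 of 14, 6 of 15, 8 of 14, 3 of 15 and 6 of 15 alternatives, always including the one without photocaged replicate 1 (adjusted p up to 0.291).

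On the lower side, MUC19 had 2.76, 4.57 and 4.44 CPM in photocaged cells, against 9.93, 10.4 and 7.99 CPM in DMSO cells (log2 change -1.26 ± 0.25, adjusted p = 0.00173). PPFIA4, a liprin, fell by 1.10 ± 0.24 (adjusted p = 0.00794). Both were lost without photocaged replicate 1 (adjusted p = 0.0569 and 0.0985). The noncoding RNA MIR503HG fell by 1.36 (adjusted p = 0.0230), a call lost without photocaged replicate 1 or 3 or DMSO replicate 2 or 3 (up to 0.195). CXCR4, a chemokine receptor, fell by 1.06 ± 0.27 (adjusted p = 0.0240) and lost its call without photocaged replicate 1 or 2 or DMSO replicate 2 or 3 (up to 0.155). SNORA57 was at 1.41, 2.72 and 2.24 CPM in photocaged cells and at 0 in all 3 DMSO libraries, and CTBP2P10, a pseudogene whose reads may be shared with its parent, was at 0 in photocaged cells and at 2.91, 4.36 and 5.69 CPM in DMSO cells. SNORA57 lost its call in 9 of 14 alternatives, the replicate block, voom and each library left out among them (adjusted p up to 0.314), and CTBP2P10 in 6 of 14, voom and every left-out library but DMSO replicate 1 (up to 0.219).

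The genes of the drug's own target and of its conjugation gave no call. PTGS1 and PTGS2, the cyclooxygenases, stayed at or below 19 and 42 counts in the 6 libraries, and their log2 changes were 0.44 (adjusted p = 0.904) and 0.73 (0.356). None of 14 tested prostaglandin pathway genes passed, nor any of 14 tested genes of glucuronidation, acyl glucuronide hydrolysis and efflux. CPT1A, which admits fatty acids to mitochondria, changed by 0.38 ± 0.10 (adjusted p = 0.0292) and lost its call without each of the 6 libraries in turn. No immediate early gene of 27, NF-kB target of 14 tested or interferon-stimulated gene of 18 tested passed the threshold. Only 1.58% of all tested genes were called, so no call in lists of these sizes says little about their members.

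The photocaged forms of the 2 drugs shared dose, time and DMSO libraries, and they form the 1 compound pair compared here. Tested directly, no gene differed between photocaged ibufenac and photocaged ibuprofen at 12 h (0 of 19352 genes, edgeR, with 583 at an unadjusted p under 0.05 and 1 called by DESeq2). ASNS came nearest: it averaged 174 ± 5.4 CPM with photocaged ibufenac and 134 ± 9.9 CPM with photocaged ibuprofen (SD, n = 3 each), a log2 difference of 0.37 with a 95% interval of 0.23 to 0.51 (adjusted p = 0.0555). ASNS was the gene called by DESeq2 (adjusted p = 0.0144), and its adjusted p was 0.0351 without ibuprofen photocaged replicate 1. A p that misses the threshold does not show that the compounds act alike.

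The intervals for other members show what size of difference remained possible. For HMOX1 the log2 difference was 0.37 (0.08 to 0.66, adjusted p = 1), at 52.4 ± 5.5 CPM with photocaged ibufenac and 40.5 ± 1.0 with photocaged ibuprofen. For XBP1 it was 0.27 (0.14 to 0.40, adjusted p = 0.713) and for TXNRD1 0.25 (0.12 to 0.37, adjusted p = 0.845). RARB differed by -0.61 (-1.10 to -0.11, adjusted p = 1), LDHA by -0.17 (-0.45 to 0.10) and SRSF5 by -0.01 (-0.17 to 0.14). Against the DMSO libraries that both arms share, photocaged ibuprofen gave 131 called genes (19 risen and 112 fallen). Its log2 changes were 0.75 for HMOX1 (adjusted p = 0.00446), 0.28 for TXNRD1 (0.0169), 0.26 for ASNS (0.0657), -1.20 for RARB (0.00395), -0.56 for LDHA (0.0333) and -0.52 for SRSF5 (8.62e-05).

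Ibufenac given as a bolus, a form with its own libraries but the same DMSO controls, called 0 genes against DMSO at 12 h by edgeR (695 at an unadjusted p under 0.05). Tested directly against that bolus, photocaged ibufenac differed in 144 genes (0.744% of those tested), 60 higher (0.31%) and 84 lower (0.434%). HMOX1 averaged 52.4 ± 5.5 CPM with the photocaged form and 27.4 ± 1.9 CPM with the bolus (log2 difference 0.94 ± 0.15, adjusted p = 0.000192). ASNS averaged 174 ± 5.4 and 110.5 ± 4.7 CPM in the same order (0.65 ± 0.07, adjusted p = 2.23e-08). TXNRD1 was higher by 0.60 ± 0.06 (adjusted p = 7.12e-09), SLC1A4 by 0.62 ± 0.09 (1.27e-05) and XBP1 by 0.47 ± 0.06 (1.27e-05).

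RARB averaged 3.45 ± 0.82 CPM with the photocaged form and 9.65 ± 0.92 CPM with the bolus (-1.47 ± 0.24, adjusted p = 0.000294), and SRSF5 was lower by 0.46 on the log2 scale (adjusted p = 0.000294). HMOX1, ASNS, TXNRD1, SLC1A4, XBP1, RARB and SRSF5 passed in all 15 alternatives for the bolus comparison. LDHA, at 437 ± 65 CPM with the photocaged form and 656 ± 48 CPM with the bolus, differed by -0.58 ± 0.14 (adjusted p = 0.0208), a call lost without photocaged replicate 1 or 2 or bolus replicate 1 or 3 (up to 0.187). Of 29 tested NRF2 targets 7 were higher than with the bolus and of 34 ATF4 targets 9, as were 0.31% of all tested genes. Of 30 tested hypoxia targets 3 were lower, of 19 glycolysis genes 2 and of 23 SR family genes 7. Of all tested genes 0.434% were lower. The count of 144 was 56, 86 and 71 without photocaged replicates 1, 2 and 3, and 73, 82 and 63 without bolus replicates 1, 2 and 3.

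Against the probe form of ibufenac at 12 h, photocaged ibufenac differed in 373 genes (1.93%), 198 higher (1.02%) and 175 lower (0.904%). With RLE factors in place of TMM the split was 166 higher and 260 lower of 426. Protein-coding genes took 71.7% of counts in probe replicate 3, against 79.1% and 77.6% in the other probe replicates, and without it 872 genes were called. The count was 44, 223 and 60 without photocaged replicates 1, 2 and 3, and 119 and 140 without probe replicates 1 and 2.

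Of 34 ATF4 targets 7 were lower with the photocaged form than with the probe form, as were 0.904% of all tested genes. HMOX1 and TXNRD1 were higher. ASNS averaged 174 ± 5.4 CPM with the photocaged form and 256 ± 22 CPM with the probe form (log2 difference -0.56 ± 0.07, adjusted p = 4.16e-06). Of 20 tRNA synthetases 5 were lower, and no member of the ATF4 or tRNA synthetase list was higher. HMOX1 averaged 52.4 ± 5.5 CPM with the photocaged form and 30.7 ± 1.8 CPM with the probe form (0.77 ± 0.15, adjusted p = 0.00368), and TXNRD1 was higher by 0.30 ± 0.06 (adjusted p = 0.00612). ASNS and HMOX1 held in all 15 alternatives, while TXNRD1 was lost without photocaged replicate 1 or probe replicate 1 and with the compared groups alone (adjusted p up to 0.0931). Of 20 heat shock chaperones 7 were higher than with the probe form, as were 1.02% of all tested genes. Against DMSO the probe form itself lowered 13 of these 20 and raised 1, while 517 of 19352 tested genes fell and 355 rose. Of 29 tested NRF2 targets 6 were higher than with the probe form and 1, SLC7A11, was lower (-0.43 ± 0.10, adjusted p = 0.0122). That SLC7A11 call was lost without photocaged replicate 1 or 3 or probe replicate 1 or 2 and with the compared groups alone (adjusted p up to 0.0906). TRIB3 (-0.22, adjusted p = 0.191), PHGDH (-0.09, 0.589), XBP1 (-0.12, 0.317) and LDHA (0.14, 0.656) missed the threshold.

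**Figure D3:**
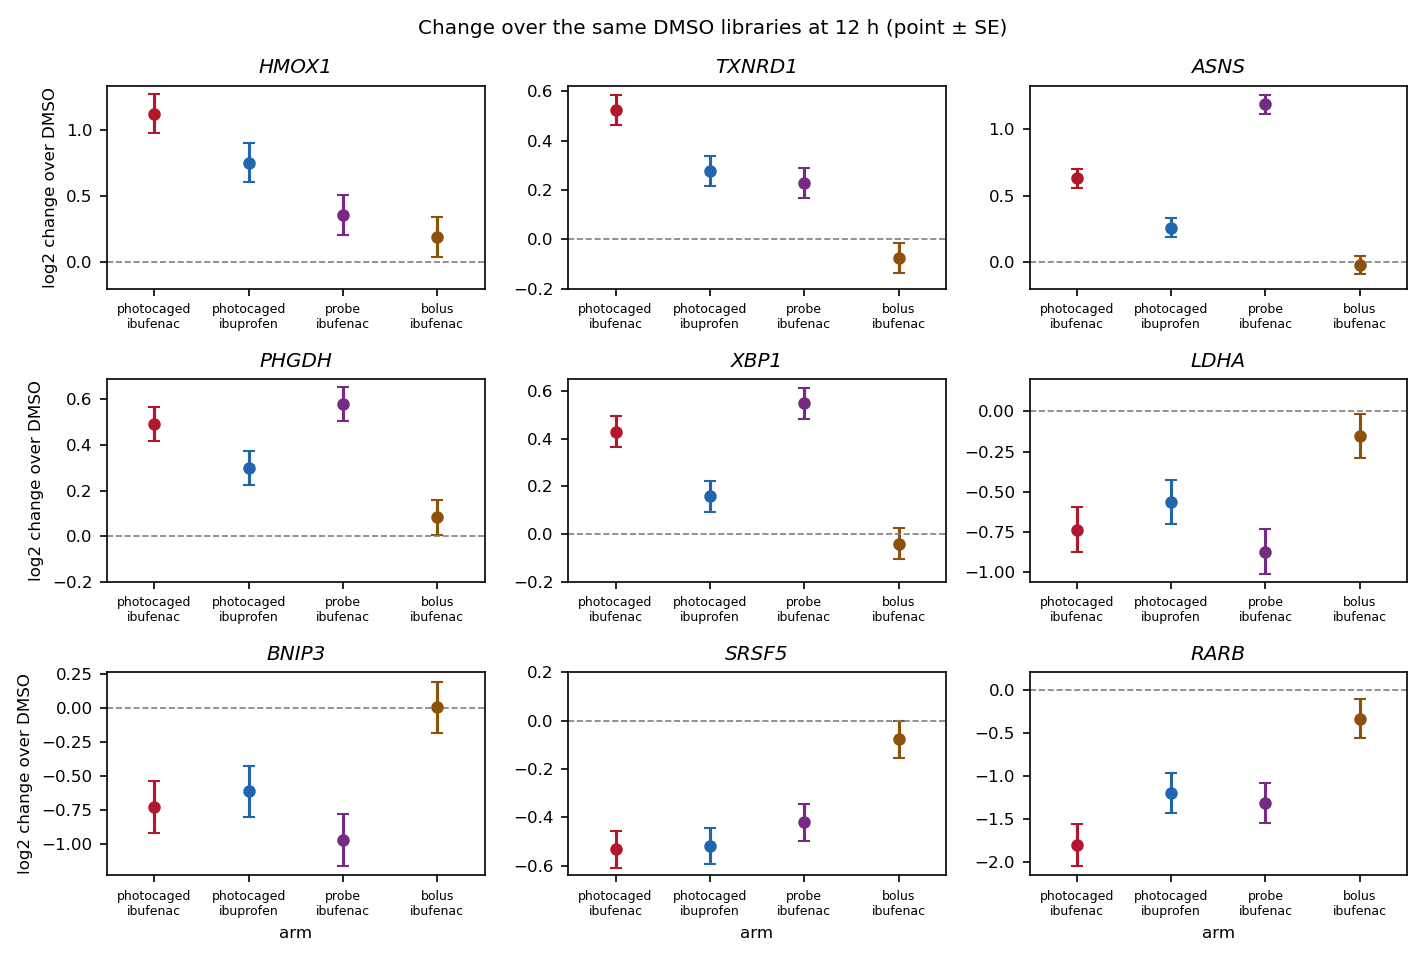
Log2 change over the same 3 DMSO libraries at 12 h, with SE, for 9 genes in 4 arms. The bolus points lie near 0, ASNS is highest with the probe form (1.19, against 0.63 with photocaged ibufenac), and HMOX1 is highest with photocaged ibufenac (1.13, against 0.36 with the probe form).

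The effect of photocaged ibufenac over DMSO of the same time gave 587 called genes at 6 h (344 risen, 1.78% of those tested, and 243 fallen, 1.26%) and 553 at 18 h (322 risen, 1.66%, and 231 fallen, 1.19%), beside the 306 at 12 h. The difference between the 12 h and the 6 h effect was tested directly, and 12 genes passed (0.062%). The effect at 12 h was smaller or more negative in 11 of them (0.0568% of tested genes) and higher in 1 (0.00517%). SLC7A11, the cystine carrier, averaged 201 ± 25, 105 ± 7.9 and 102 ± 6.8 CPM in photocaged cells at 6, 12 and 18 h, against 88.9 ± 8.0, 84.0 ± 9.8 and 82.1 ± 10.1 CPM in DMSO cells. Its log2 effect was 1.18 at 6 h (adjusted p = 6.71e-13) and 0.32 at 12 h, a difference of -0.85 ± 0.14 (adjusted p = 0.000814). CTH, which makes cysteine from cystathionine, had effects of 1.08 at 6 h and 0.30 at 12 h (difference -0.77 ± 0.13, adjusted p = 0.000814), and SLC1A4 had effects of 1.19 and 0.50 (-0.69 ± 0.12, adjusted p = 0.00274).

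SLC1A4 held its 12 h and 6 h difference in all 20 alternatives, and SLC7A11 in 19, missing with the compared groups alone (adjusted p = 0.0919). The count of 12 was 4, 4 and 81 without photocaged 6 h replicates 1, 2 and 3, 5 without photocaged 12 h replicate 1 or 3, DMSO 6 h replicate 2 or 3 or DMSO 12 h replicate 2 or 3, and 7 without DMSO 12 h replicate 1. For HMOX1 the effect was 1.36 at 6 h and 1.13 at 12 h (difference -0.24 ± 0.21, adjusted p = 0.748), and for ASNS 0.91 and 0.63 (-0.28 ± 0.10, adjusted p = 0.327). Among ATF4 targets, 15 rose at 6 h and 11 at 12 h, where 1.78% and 0.475% of all tested genes rose. Of the tRNA synthetases 9 rose at 6 h and none at 12 h, and of unfolded protein response genes 11 and 2, but no member of either list was among the 12 genes whose difference passed.

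The 12 h and 18 h effects differed in 469 genes (2.42%), 277 with the higher effect at 12 h (1.43%) and 192 with the lower one (0.992%). Protein-coding shares ran in opposite order at these times: 71.9% to 75.5% in photocaged and 76.5% to 79.3% in DMSO libraries at 12 h, against 74.8% to 78.3% in photocaged and 70.4% to 71.0% in DMSO libraries at 18 h, and their part in the differences was not tested. HMOX1 averaged 66.0 ± 11, 52.4 ± 5.5 and 32.6 ± 2.3 CPM in photocaged cells at 6, 12 and 18 h, against 25.7 ± 1.2, 24.0 ± 5.7 and 29.7 ± 5.3 CPM in DMSO cells. Its effect was thus 1.13 at 12 h and 0.14 at 18 h (difference 0.99 ± 0.21, adjusted p = 0.0125), a call lost without DMSO 12 h replicate 2, photocaged 12 h replicate 1 or photocaged 18 h replicate 1 (up to 0.0696). ASNS had effects of 0.63 and 0.14 (0.49 ± 0.10, adjusted p = 0.00986) and PHGDH 0.49 and -0.08 (0.57 ± 0.11, adjusted p = 0.00432), both held in all 20 alternatives. Of 34 ATF4 targets none rose at 18 h and 2 fell, where 1.66% of all tested genes rose and 1.19% fell.

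TXNRD1 (0.52 at 12 h and 0.41 at 18 h, difference 0.12 ± 0.09, adjusted p = 0.522) and XBP1 (0.43 and 0.39, difference 0.04 ± 0.09, adjusted p = 0.881) were called at both times. Among the genes that fell, RARB had effects of -1.25, -1.81 and -1.59 at 6, 12 and 18 h, and LDHA of -0.35, -0.74 and -0.54. Neither difference between times passed for RARB (adjusted p = 0.596 and 0.806) or LDHA (0.487 and 0.668). DMSO levels spread widely at 18 h, at 710 ± 288 CPM for LDHA and 90.2 ± 54.2 CPM for BNIP3 (SD, n = 3). SRSF5 had effects of -0.25, -0.53 and -0.04, and its 12 h effect differed from that at 18 h (-0.49 ± 0.11, adjusted p = 0.0144), a call lost without photocaged 12 h replicate 1 or with GC and length trends removed (up to 0.0835). The count of 469 was 21, 294 and 233 without photocaged 12 h replicates 1, 2 and 3, 714, 34 and 56 without DMSO 12 h replicates 1, 2 and 3, 20 and 280 without photocaged 18 h replicates 1 and 2, and 219 without DMSO 18 h replicate 1.

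**Figure D4:**
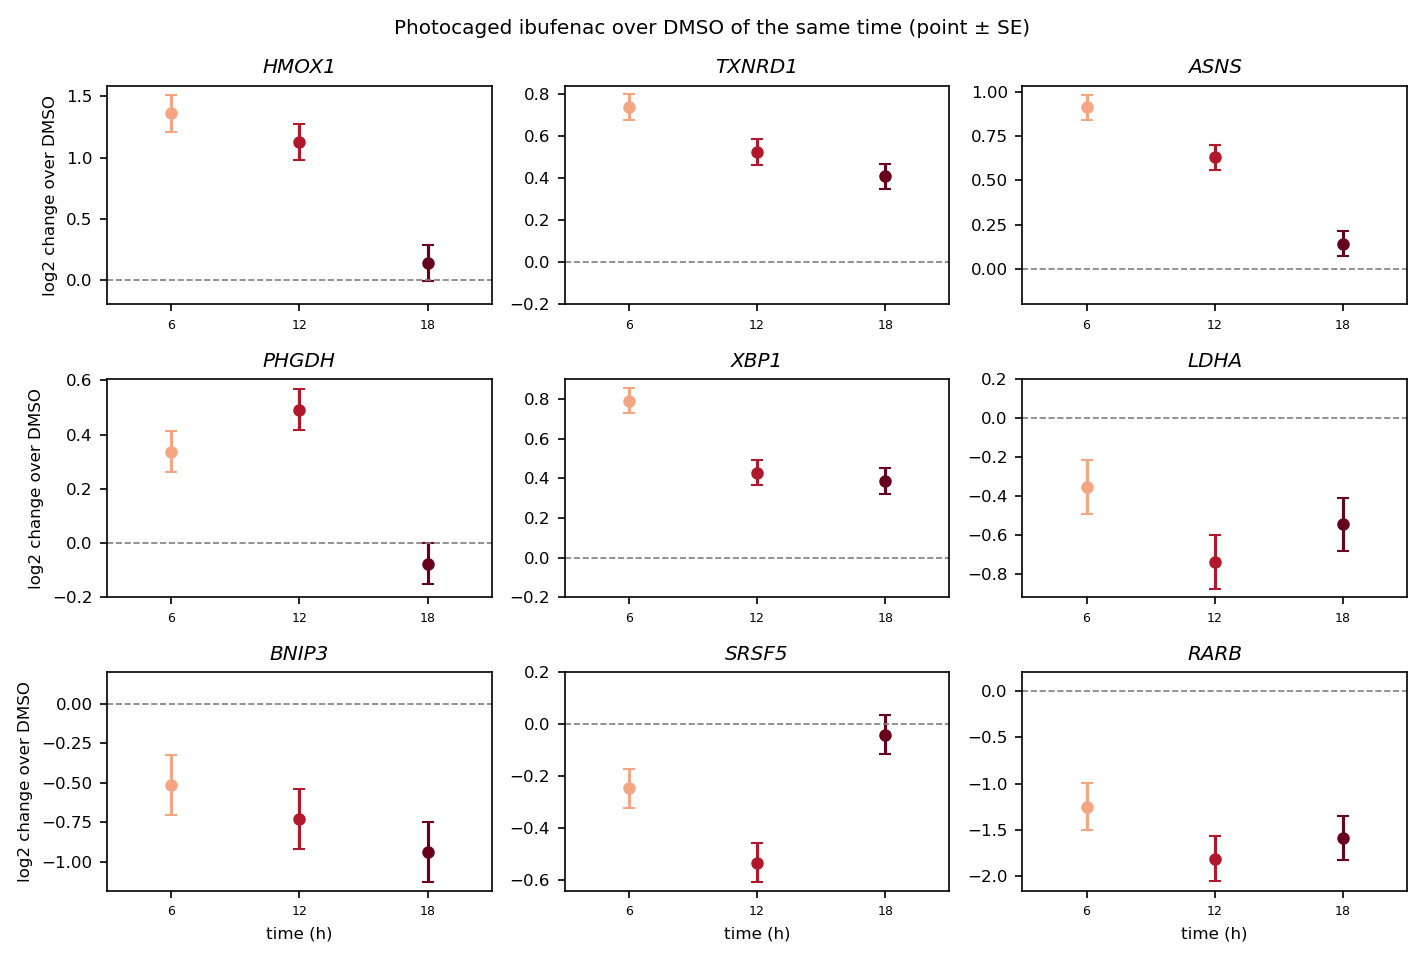
Log2 change of photocaged ibufenac over DMSO of the same time, with SE, at 6, 12 and 18 h for 9 genes. HMOX1, ASNS and PHGDH lie near 0 at 18 h (0.14, 0.14 and -0.08), whereas TXNRD1, XBP1 and RARB lie away from 0 at all 3 times.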

How the data were processed

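RNA of 63 HEK293T libraries (total RNA, ribosomal depletion, stranded kit, per the labels' protocols) was analysed from the deposited table of expected counts, the authors' estimated counts per Ensembl gene without normalization. Of values of 1 or more, 22.6% were not whole, and all were rounded. The aligner, counting program, strand setting and build were not given in the sources used here. Coordinates come from GENCODE release 29 (GRCh38) and promoters from RefSeq (GRCh38.p14). A table of FPKM was not used.

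In R 4.3.3, edgeR 4.0.16 kept genes by filterByExpr (minimum count 10), scaled by TMM and fitted quasi-likelihood models over all 63 libraries in 21 groups (42 residual and 8.18 prior degrees of freedom). Tests were two-sided, adjusted by Benjamini-Hochberg over all 19352 tested genes in each comparison, and called at 0.05. Standard errors (SE) were derived from the test, as the absolute log2 change divided by the square root of the quasi-likelihood F. The 95% intervals were built from these SE. Alternatives were limma-voom (3.58.1), DESeq2 1.42.0, testing without the low-count filter, RLE factors, a block for replicate number, the compared groups alone, the 12 h libraries alone and each library left out. Added after seeing the data were leaving out 2 libraries of 18 h (DMSO replicate 3 and ibufenac bolus replicate 3) and removing GC and length trends. The procedure was tested on simulated data.

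The members, lists, tests and fixed genes were chosen with earlier results of these data known. The lists of SR families, amino acid carriers and axon guidance genes were written after values of this comparison had been seen, the first replacing a shorter hand-picked selection. Named genes were, by size of change, at most 12 risen and 12 fallen called genes (1 CPM or more on average, groups not overlapping), up to 4 called members of each list by p, up to 5 and 5 in the other comparisons, and 17 fixed genes. Other list members named in the text were chosen after their values were seen, and some unnamed or multicopy genes were left out. Some results are not reported here.

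Replicate numbers gave no clear sign of pairing: deviations of same-numbered libraries correlated at 0.0674, 0.00182 and 0.0277, and those of other pairs at -0.0609 to 0.0372. With 3 libraries a group, this cannot show that no batch was shared. No 2 libraries of a group were duplicates.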

Additional observations from a re-analysis of the deposited data

Results flagged for a closer look

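Groups of 3 libraries were too small for a test of single outlying libraries, so the results below were picked out by a direct test of whether the photocaged ibufenac effect over DMSO at 12 h differed from that at another time (edgeR, adjusted p under 0.05). Against 6 h the effect differed in 12 genes. The named ones were MUC19 (difference of log2 effects -2.56), ACTA2 (-1.15), SLC7A11 (-0.85), CTH (-0.77), the unnamed gene ENSG00000256664 (-2.11) and RDH13 (0.81), the only one with the higher effect at 12 h. The calls of ENSG00000256664 and RDH13 were lost in 15 and 12 of 20 alternatives (adjusted p up to 0.444 and 0.318), those of SLC7A11 and CTH in 1 and that of MUC19 in none. MUC19 averaged 4.43 ± 0.80, 3.92 ± 1.01 and 8.49 ± 1.02 CPM in photocaged cells at 6, 12 and 18 h, against 1.80 ± 0.55, 9.44 ± 1.27 and 13.5 ± 1.9 CPM in DMSO cells (SD, n = 3 each). ACTA2 averaged 17.8 ± 3.0, 22.4 ± 0.59 and 36.8 ± 2.3 CPM in photocaged cells at these times, against 9.60 ± 1.04, 26.8 ± 6.5 and 37.2 ± 6.9 CPM in DMSO cells, and its call was lost in 5 of 20 alternatives. In both genes photocaged cells were higher at 6 h, and the DMSO level was lowest at 6 h.

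Against 18 h the effect differed in 469 genes. On the higher side the differences were largest, among the named genes, for noncoding RNAs and histone genes: RMRP (4.47), H3C14 (3.19), SCARNA2 (3.16), H3C13 (3.14) and the unnamed gene ENSG00000259001 (3.16). These calls were lost in 8 (RMRP), 5 (H3C14), 4 (SCARNA2), 10 (H3C13) and 5 (ENSG00000259001) of 20 alternatives. RMRP had 1473, 1108 and 1029 CPM in photocaged cells at 12 h, against 378, 69.9 and 248 CPM in DMSO cells at 12 h. Protein-coding shares differed between the groups in opposite order at the 2 times, and their part in these values was not tested. Among other protein-coding genes the differences were 1.90 for OVCA2, 1.99 for INAVA, 1.82 for C12orf57, 0.99 for HMOX1, 0.49 for ASNS and 0.47 for TRIB3. The calls were lost in 7 of 20 alternatives for OVCA2, 4 of 19 for INAVA, 4 of 20 for C12orf57, 3 of 20 for HMOX1 and none of 20 for ASNS, and the TRIB3 call held in 9 of 20. On the lower side the differences were -1.33 for CMYA5, -1.41 for ENSG00000280184 and -1.39 for ENSG00000270277. These 3 calls were lost in 12, 9 and 4 of 20 alternatives. ARL2-SNX15 and CTBP2P10 also passed with a lower effect at 12 h, but both were at 0 in all photocaged libraries at 12 h, so their fitted differences (-21.8 and -10.4) depend on the prior count and were not ranked with the others. Their calls were lost in 11 of 20 and 9 of 19 alternatives.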

How the results depend on the processing

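The 306 calls against DMSO became 573 with DESeq2. They were 886 with no low-count filter (592 higher and 294 lower) and 1581 with the compared groups alone (849 higher and 732 lower). The count was 493 with GC and length trends removed, and ran from 71 to 206 with each library left out. RLE factors gave 345 calls, voom 383, the 12 h libraries alone 397, the 18 h libraries left out 403, and the replicate block 300, of which 291 were shared. The replicate numbers gave no clear sign of pairing, and the block gave 0, 146, 357, 11 and 428 calls against photocaged ibuprofen, bolus, probe, 6 h and 18 h. Against photocaged ibuprofen, DESeq2, voom, the compared groups alone, the 18 h libraries left out and the GC and length fit gave 1 each, no filter gave 80, and leaving out libraries gave 0 to 1. Against the bolus, no filter gave 260, the compared groups alone 619, the GC and length fit 227, and leaving out libraries 56 to 86. Against the probe form, DESeq2 gave 920, no filter 1420, the compared groups alone 171, the 12 h libraries alone 969, the 18 h libraries left out 588, the GC and length fit 770, and leaving out libraries 44 to 872. For the 12 h effect against 6 h, DESeq2 gave 58, RLE factors 24, no filter 602, the compared groups alone 3, the GC and length fit 21, and leaving out libraries 4 to 81. Against 18 h, DESeq2 gave 1146, no filter 1459, voom 717, the compared groups alone 1151, the 18 h libraries left out 794, the GC and length fit 230, and leaving out libraries 20 to 714. The 12 h libraries alone cannot give the comparisons between times. The sign turned for CYP26A1 against DMSO (-0.99 to 0.021 with each library left out, positive only without DMSO replicate 1) and for TRIB3 between 12 h and 18 h (-0.029 with GC and length trends removed, against 0.47). The causes were not tested. Over the named genes that were called, leaving out a library kept 593 and lost 475 calls, with no change of sign. With 3 libraries a group and 16.98 to 22.59 M counts, low genes such as PTGS1 had wide intervals.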

Other observations

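Some called genes at 12 h stood alone in lists that otherwise gave no call. Of all tested genes 1.58% were called, so 1 call says little about its list. BCL2L1, which encodes the survival factor BCL-XL, was at 25.1, 23.8 and 22.4 CPM in photocaged cells, against 18.1, 16.9 and 15.4 CPM in DMSO cells (log2 change 0.50 ± 0.11, adjusted p = 0.00888), 1 of 22 tested apoptosis regulators. MDM2, the ubiquitin ligase of p53, had 736, 867 and 805 CPM in photocaged cells, against 949.5, 1088 and 1040 CPM in DMSO cells (-0.35 ± 0.08, adjusted p = 0.00707), 1 of 26 p53 targets. Both calls ended without photocaged replicate 1, BCL2L1 also without DMSO replicate 3 and MDM2 without DMSO replicate 2 (adjusted p up to 0.123). AHRR, the repressor of the aryl hydrocarbon receptor, rose by 0.56 ± 0.15 (adjusted p = 0.0329), and the clock gene BHLHE40 fell by 0.65 ± 0.17 (adjusted p = 0.0300). Both lost the call without each of the 6 libraries in turn (adjusted p up to 0.220).

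Of 27 G2/M genes 1 fell, as did 1.11% of all tested genes. It was the kinetochore gene CENPF, at 385, 445 and 466 CPM in photocaged cells, against 541, 548 and 606 CPM in DMSO cells (-0.39 ± 0.09, adjusted p = 0.00859, and up to 0.161 without photocaged replicate 1 or DMSO replicate 3). Its effect at 12 h differed from that at 18 h (-0.70 ± 0.12, adjusted p = 0.00282). Replication-dependent histones (median 0.45, 22 tested) and polymerase III RNAs (median 0.46, 7 tested) gave no call by edgeR. Protein-coding shares were 71.9% to 75.5% in photocaged libraries and 76.5% to 79.3% in DMSO libraries, and their part in these values was not tested. No member passed among 18 tested YAP and TEAD targets, 13 Wnt genes, 15 Notch genes, 15 metallothionein and zinc carrier genes, 16 snoRNA hosts, 40 nuclear oxidative phosphorylation genes and 15 mitochondrial genome transcripts. Only 1.58% of all tested genes were called, so no call in lists of these sizes, histones and polymerase III RNAs included, says little about them.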
